A study of Mus musculus with 2 samples.

Results

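The genes described here are 9 members of the T-box family of transcription factors, namely Tbx1, Tbx2, Tbx3, Tbx4, Tbx5, Tbx15, Tbx18, Tbx20 and Tbx22. They were chosen by symbol, and all 9 were found among the 32285 genes of the deposited feature table. Their counts came from cranial neural crest cells (CNCCs), the migratory cells that build most of the facial skeleton, sorted from mouse heads at embryonic day E11.5. The heads were cut below the second pharyngeal arch, and cells that had switched on membrane GFP from the r26 mTmG/mTmG reporter under Wnt1CRE were kept. Wnt1CRE acts from the premigratory crest onward and also in parts of the brain, so the sorted cells included neural types. Control embryos were Tfap2a wt/flox and Tfap2b wt/flox, and mutant embryos were Tfap2a flox/flox and Tfap2b flox/flox. All of these embryos carried Wnt1CRE, so the control cells were heterozygous for both targeted genes.

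Each group was 1 library made from a pool of 2 embryos. No error between embryos could be estimated, no test was run, and every bracketed 95% interval covers counting error only. Counts of UMIs, the tags that mark captured transcript molecules, are also given as CPM, the count per 1000000 UMIs of the same cells. After filtering, 5625 control and 5587 mutant cells remained, with medians of 13478 and 12234 UMIs per cell. Xist was detected in 98.8% of control and 0.107% of mutant cells and Y-linked transcripts in 0.0356% and 82.0%, so the libraries differed in sex as well as genotype, whose parts cannot be told apart. In the mesenchyme, Tfap2a had 1151 control and 600 mutant UMIs and Tfap2b had 3410 and 2141. A 3′ count does not tell transcripts of the intact allele from those of the recombined allele.

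T-box proteins bind DNA through a shared domain and act in dose-sensitive ways in the development of limbs, heart and face. Tbx2 and Tbx3 encode close relatives that mainly repress transcription, and Tbx4 and Tbx5, from the same subfamily, are best known from hindlimb, forelimb and heart. Tbx1, Tbx15, Tbx18, Tbx20 and Tbx22 belong to another subfamily. Tbx1 lies in the interval deleted in 22q11.2 deletion syndrome, and TBX22 mutations cause X-linked cleft palate with ankyloglossia.

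The members lie on 6 chromosomes of the mouse genome (GRCm38, the assembly that mm10 names, with genes from GENCODE M21). Tbx2 (chr11:85832551-85841948, plus strand) and Tbx4 (chr11:85886422-85916097, plus strand) are neighbours, 44.5 kb apart. Tbx3 (chr5:119670669-119684724, plus strand) and Tbx5 (chr5:119832668-119885219, plus strand) form a second linked pair, 148 kb apart. Tbx18 (chr9:87702800-87731260) and Tbx20 (chr9:24718138-24774303) are both on the minus strand of chromosome 9 but far from each other. Tbx15 is at chr3:99240381-99354259 on the plus strand, Tbx1 at chr16:18580979-18590671 on the minus strand and Tbx22 at chrX:107667964-107688978 on the plus strand.

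Tbx2 and Tbx3 made up most of the members' UMIs, and both were far higher in the mesenchyme than in the other classes of sorted cells. The sorted cells fell into 4 classes, and each was checked against its markers. The mesenchyme class (3806 control and 2872 mutant cells) had higher CPM than the other cells for 6 of 6 markers, among them Prrx1 and Twist1. Neurons (797 and 1282 cells), brain progenitors (762 and 1231) and glia (260 and 202) were the other classes. In the mesenchyme, Tbx2 had 6745 control UMIs (115 CPM) and 4100 mutant UMIs (92.4 CPM). Tbx3 had 4346 UMIs (73.9 CPM) and 2731 UMIs (61.6 CPM).

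The other members were much scarcer. In the mesenchyme, Tbx18 had 589 control and 738 mutant UMIs (10.0 and 16.6 CPM), Tbx22 had 439 and 297 (7.47 and 6.69 CPM), and Tbx15 had 273 and 120 (4.64 and 2.71 CPM). Tbx1 had 82 and 75 UMIs and Tbx4 had 82 and 47. Tbx20 had 7 and 11 UMIs, and Tbx5 had 0 and 1, so no level of either gene could be set with any precision. In each linked pair, therefore, 1 gene was abundant in the mesenchyme and its neighbour was close to or at the limit of detection.

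Glia were the only other class with more than scattered Tbx2 and Tbx3 UMIs in both libraries. Glial Tbx2 had 69 control UMIs (13.7 CPM) and 38 mutant UMIs, and glial Tbx3 had 78 (15.4 CPM) and 54 (16.4 CPM), with overlapping intervals between libraries. To compare shares of cells across depths, each cell was thinned to 5000 UMIs, which left out 83 control and 91 mutant mesenchyme cells. Tbx2 was then detected in 32.7% of control mesenchyme cells (95% interval 31.2 to 34.2) and 5.04% of control glia (2.71 to 8.46), against 1.20% of control brain progenitors (0.552 to 2.27), where counts of a mesenchymal gene also measure free RNA. Without thinning, these shares were 52.9%, 17.3% and 3.15%, at median depths of 14535.5, 17883 and 11599 UMIs per cell. In the mutant library the thinned shares were 27.0%, 4.98% and 0.335%. The shares of mesenchyme and glia lay above those of brain progenitors in both libraries. Summed mesenchyme markers were also higher in glia (112 and 121 CPM) than in brain progenitors (52.8 and 49.4 CPM), with 6 of 6 detected in each, and 3.08% of control and 7.92% of mutant glia were called doublets. Their part in the glial Tbx2 and Tbx3 counts was not tested.

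Neurons held few UMIs of either gene, and they were spread differently in the 2 libraries. The control neurons held 49 Tbx2 UMIs in 20 cells, with up to 10 in 1 cell, and the mutant neurons 13 UMIs in 13 cells. For Tbx3 they held 27 UMIs in 14 cells and 2 UMIs in 2 cells. In the control library several of these UMIs thus lay in a few neurons, which was not so in the mutant library. Tbx4 had 0 UMIs in neurons, brain progenitors and glia of both libraries. A Tbx4 UMI was held by 0 of 775 thinned control neurons, which at a floor of 3 counts allows a share of up to 0.387% of cells with a UMI.

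**Figure D1:**
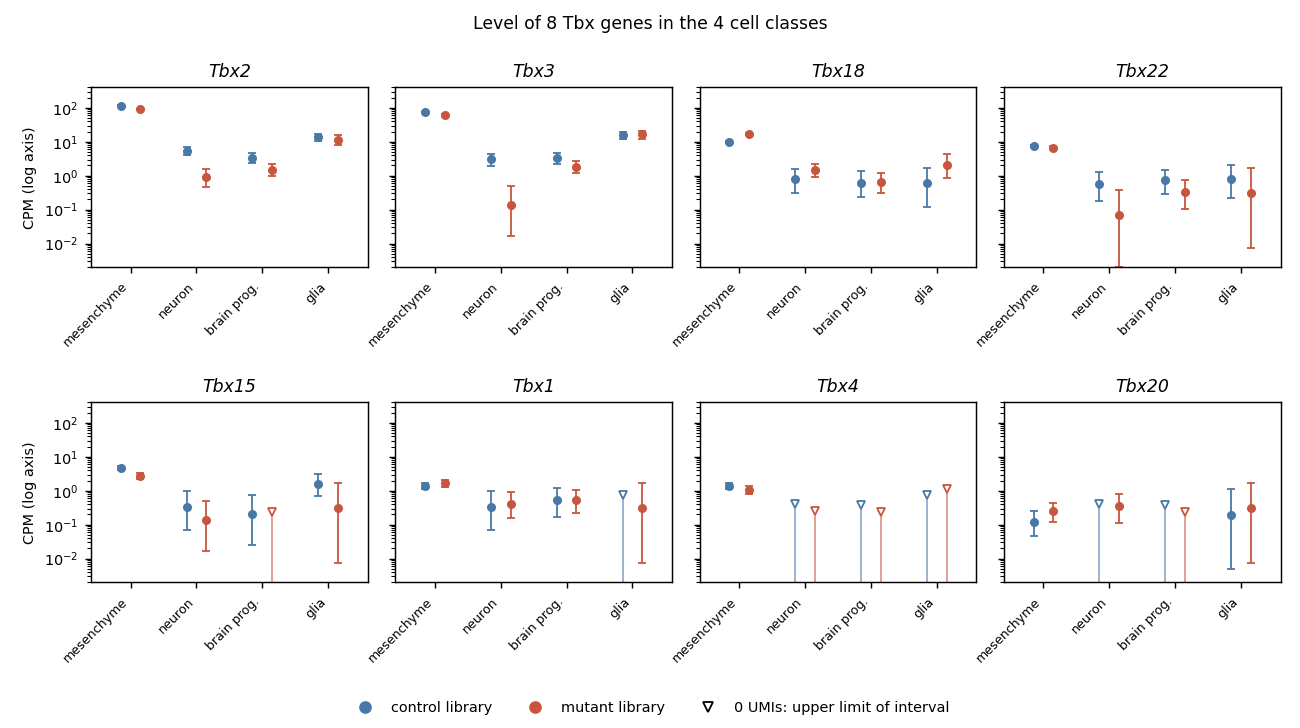
CPM (log axis) of 8 Tbx genes in mesenchyme, neurons, brain progenitors and glia, with control in blue and mutant in red. Points are sums over the cells of a class in 1 library, bars are 95% Poisson intervals for counting error, and open triangles mark the upper limit where a library had 0 UMIs. Tbx2 and Tbx3 stand between 61.6 and 115 CPM in mesenchyme and at 16.4 CPM or lower in glia.

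Within the mesenchyme, the members followed distinct regional patterns. Clustering without the T-box genes gave 6 clusters. A frontonasal-like region was marked by Pax7 and Alx1, a maxillary-like region by Lhx6, Lhx8 and Osr2, and a mandibular-like region by Hand2. Of their marker lists, 6 of 6, 5 of 6 and 5 of 7 genes, in this order, were higher than in the other mesenchyme cells. A region led by 3110099E03Rik, Hoxa2 and Emx2 and a region led by Vtn, Tagln and Zic1 could not be named from the marker lists, and are called the Hoxa2/Emx2 and the Vtn/Zic1 regions. The sixth cluster was led by neural genes such as Hes5 and Elavl3. In it, 44.3% of 97 cells from the control library and 54.8% of 146 from the mutant library were called doublets, and it was left out of the regional comparison. The numbers of cells per region are not compared between the libraries.

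Of the 7 members with at least 100 mesenchyme UMIs over both libraries, 6 differed 4-fold or more between their highest and lowest of the 5 regions in both libraries, with the same highest region in both. Among all 12610 genes with that many UMIs, 749 did so, which is 5.94%. The members were proposed as genes of the facial mesenchyme with earlier results of these data in view, so their count is a description and not a test. The exception was Tbx1, whose highest region differed between the libraries.

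Tbx2 and Tbx3 had the same order of regions in both libraries, maxillary-like first, then frontonasal-like, mandibular-like, Vtn/Zic1 and Hoxa2/Emx2. Control Tbx2 was at 175 CPM in the maxillary-like region, 162 CPM in the frontonasal-like, 64.0 CPM in the mandibular-like, 33.8 CPM in the Vtn/Zic1 and 27.2 CPM in the Hoxa2/Emx2 region. Only the last pair of neighbours in this order had overlapping intervals. On the finer scale the first places of Tbx2 turned, with 203 control and 184 mutant CPM in the finer frontonasal-like cluster against 182 and 169 CPM in the maxillary-like one, apart in the control and overlapping in the mutant library, while Tbx3 kept the maxillary-like cluster first. Control Tbx3 was at 140, 89.7, 42.5, 17.6 and 8.22 CPM in the same order, with no overlap between neighbours, while the last pair overlapped in the mutant library (7.89 and 4.30 CPM). The range was wider for Tbx3 than for Tbx2, with a highest-to-lowest ratio of 17.0 in the control and 31.3 in the mutant library, against 6.43 and 9.28 for Tbx2. Among thinned maxillary-like cells, 53.7% held a Tbx2 UMI in the control library and 51.8% in the mutant library, and 43.6% and 45.7% held a Tbx3 UMI.

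Tbx18 had its highest level in the Vtn/Zic1 region, at 80.1 CPM in the control and 74.3 CPM in the mutant library. The next highest region was the frontonasal-like, at 7.34 and 19.4 CPM. Tbx18 is known from mural cells, the pericytes and smooth muscle of vessels, and a finer clustering gave its highest level in such cells. It divided the mesenchyme into 12 clusters, of which a mural-like cluster of 81 control and 112 mutant cells was led by Vtn, Tagln and Acta2. In this cluster Tbx18 stood at 226 CPM in the control and 142 CPM in the mutant library. The lowest finer region was led by Dlx3 and Emx2, at 1.51 and 1.99 CPM. Without thinning, 66 of the control mural-like cells (81.5%) and 62 of the mutant ones (55.4%) held a Tbx18 UMI. Summed endothelial markers in the mural-like cells were at 97.1 CPM in the control library (6 of 6 detected) and 39.3 CPM in the mutant library (4 of 6, Pecam1 and Tie1 at 0). Head muscle markers were at 1.07 CPM (1 of 6) and 112 CPM (2 of 6, Msc and Actc1), with Myf5, Myod1, Myog and Tcf21 at 0 in both. Their part in the Tbx18 levels was not tested.

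Tbx22 and Tbx15 also had their highest level in the Vtn/Zic1 region. Tbx22 was at 16.0 CPM there in the control and 10.4 CPM in the mutant library, and at 11.3 and 9.17 CPM in the maxillary-like region, with overlapping intervals in both. With clustering without integration, Tbx22 in the matched region was nearly level with the highest other region (log2 -0.013). The Hoxa2/Emx2 region had the least, 1.17 and 1.30 CPM. On the finer scale, Tbx22 was highest in a region led by Igfbp5, Thbs1 and Ogn, at 21.5 and 15.6 CPM, while the mural-like cells held 0 UMIs in both libraries. The Vtn/Zic1 region was thus made of mural-like cells with high Tbx18 and no counted Tbx22 and of other cells in which both genes were counted.

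Tbx15, a gene of skeletal and skin development, had 37 UMIs (9.84 CPM) in the Vtn/Zic1 region of the control library and 92 UMIs in the larger Hoxa2/Emx2 region, with overlapping intervals of CPM. In the mutant library the 2 regions stood apart, at 7.89 and 2.80 CPM. In the mural-like cells Tbx15 had 10 control UMIs (10.7 CPM) and 8 mutant UMIs (6.16 CPM), close to the Igfbp5-led region (9.36 and 8.56 CPM). Within the Hoxa2/Emx2 region, the highest control level was in a finer cluster led by Cyp26a1, Shisa3 and Ebf2 that also included Hsd11b2 among its leading genes. There Tbx15 reached 30.0 CPM, with 47 UMIs in 20 of 146 control cells. In the mandibular-like region Tbx15 had only 7 control and 3 mutant UMIs.

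Tbx4 and Tbx1 were rare. Tbx4 was highest in the mandibular-like region, with 42 control UMIs (4.18 CPM) and 21 mutant UMIs (3.56 CPM), and these lay above the next region without overlap in either library. Most Tbx4-positive cells held 1 UMI, since the 42 control UMIs came from 37 cells. Tbx1 was highest in the Cyp26a1/Hsd11b2 cluster in both libraries, with 25 UMIs in 11 control cells (16.0 CPM) and 33 UMIs in 16 mutant cells (13.3 CPM). In the control library its interval overlapped that of the next cluster, the mural-like, with 4 UMIs. The 10 cells with most Tbx1 UMIs held 56.1% of the gene's mesenchyme UMIs in the control library and 50.7% in the mutant library. Tbx1 is also a gene of the muscle-forming mesoderm core of the arches, and head muscle markers were detected in 2 of 38 Tbx1-positive mesenchyme cells of the control library and in 0 of 42 of the mutant library, against 0.929% and 0.813% of the other mesenchyme cells.

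Tbx20, known from the heart and from cranial motor neurons, was at the limit of detection. All 7 control mesenchyme UMIs came from 7 cells of the finer frontonasal-like region. Of the 11 mutant UMIs, 7 came from 4 mural-like cells, with 4 in 1 cell. A head muscle marker UMI was held by 0 of 7 control and 2 of 8 mutant Tbx20-positive mesenchyme cells, against 0.974% and 0.733% of the other cells. Of the 169 mutant mesenchyme UMIs of these markers, 149 lay in the Vtn/Zic1 region. Cranial motor neuron markers were held by 1 of the 7 and 3 of the 8 cells, against 28.2% and 30.1% of the others. No ratio between libraries is given for this gene at the level of regions.

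**Figure D2:**
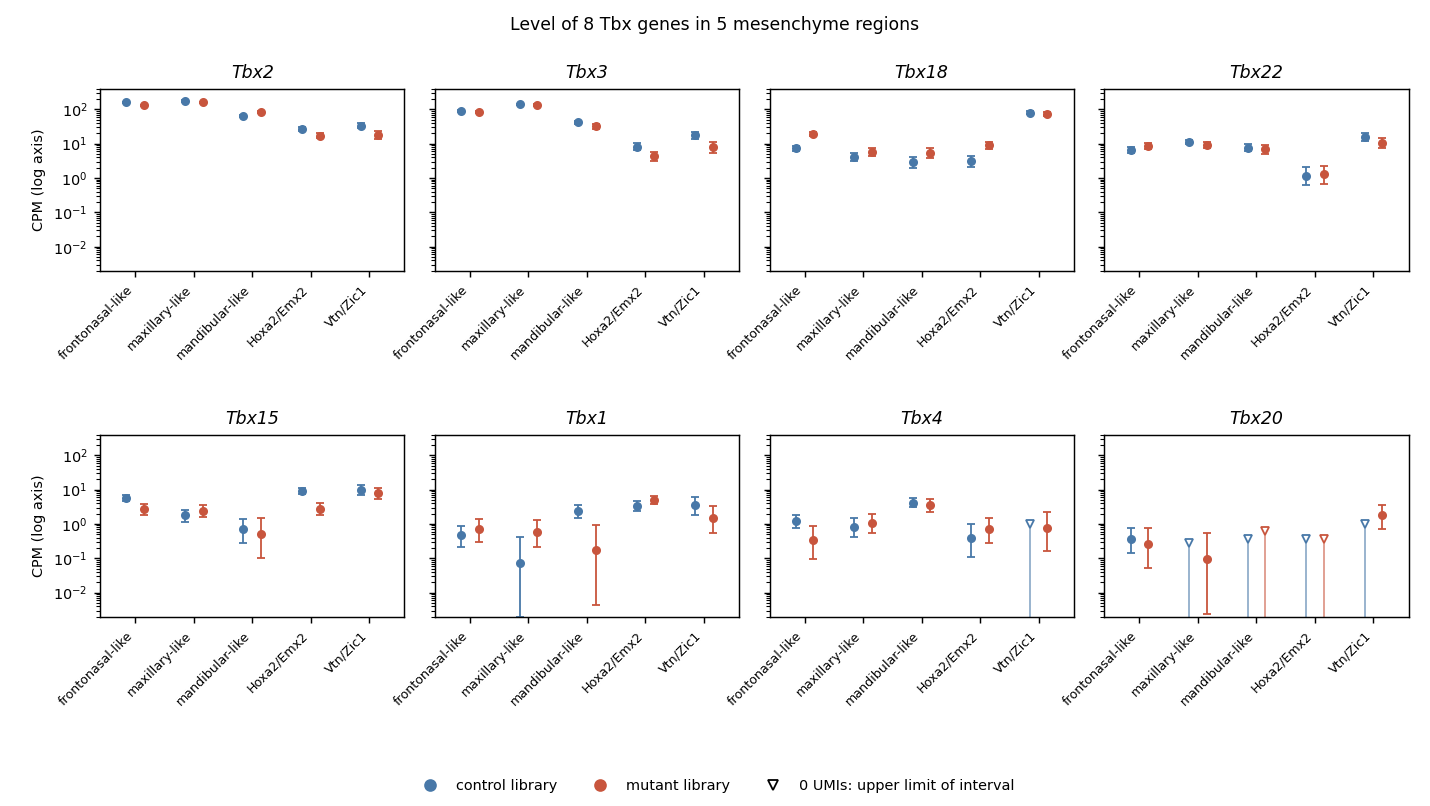
CPM (log axis) of 8 Tbx genes in 5 mesenchyme regions, control in blue and mutant in red, with 95% Poisson intervals and open triangles for the upper limit at 0 UMIs. Tbx2 and Tbx3 are highest in the maxillary-like region, Tbx18 in the Vtn/Zic1 region and Tbx4 in the mandibular-like region in both libraries.

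Across the mesenchyme as a whole, Tbx18 was higher and Tbx15 lower in the mutant library, and the abundant Tbx2 and Tbx3 were modestly lower. The log2 ratio of mutant over control was 0.73 for Tbx18 (95% interval 0.57 to 0.89) and -0.78 for Tbx15 (-1.10 to -0.46). It was -0.31 for Tbx2 (-0.37 to -0.26) and -0.26 for Tbx3 (-0.33 to -0.19). The intervals of Tbx22 (-0.16, from -0.37 to 0.06), Tbx4 (-0.40, from -0.95 to 0.14) and Tbx1 (0.28, from -0.19 to 0.75) included 0, so these counts do not separate the libraries. Tbx22 is X-linked, and Xist was detected in nearly all control and almost no mutant cells.

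A difference of 1.5-fold or more was counted as a call. Of the 7 members tested, 1 was called higher (Tbx18, a call lost with equal region shares) and 1 lower (Tbx15). Of all 12610 genes tested, 3.24% were called higher and 1.09% lower. The median log2 ratio was -0.26 over the 7 members and 0.02 over all genes. In thinned cells, the share of mesenchyme cells with a UMI was 4.00% in the control and 6.62% in the mutant library for Tbx18, 1.80% and 1.26% for Tbx15, 32.7% and 27.0% for Tbx2, and 21.7% and 19.2% for Tbx3. The intervals were apart for Tbx18 and Tbx2 and overlapped for Tbx15 and Tbx3. Without thinning, the intervals of Tbx3 were apart too, at 37.8% (36.3 to 39.4) and 31.8% (30.1 to 33.5). Summed neuronal markers in the mesenchyme were at 70.8 CPM in the control and 126 CPM in the mutant library, with 7 of 7 detected in both. Summed blood markers were at 1187 CPM (9 of 9) and 2.05 CPM (7 of 9). Of the 69816 control blood-marker UMIs, 69238 lay in the cluster led by neural genes, and without it the ratios of Tbx18 and Tbx15 were 0.76 and -0.75.

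Regions took different shares of the mesenchyme UMIs in the 2 libraries. Weighting each region's CPM by the same mean share in both gave a log2 ratio of 0.54 for Tbx18, -0.87 for Tbx15, -0.19 for Tbx2 and -0.16 for Tbx3. With the finer regions as weights, the values were 0.39, -0.99, -0.19 and -0.17. The direction of these 4 genes was the same after weighting, while the sizes for Tbx18, Tbx2 and Tbx3 were smaller than in the unweighted sums. Both weighted values of Tbx18 were under 1.5-fold, so its call over the whole mesenchyme was lost with equal region shares, and that of Tbx15 was kept. For Tbx1 the weighted value was 0.08 with the regions and -0.22 with the finer regions.

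In the frontonasal-like region, Tbx18 was at 7.34 CPM in the control and 19.4 CPM in the mutant library (log2 ratio 1.40, from 1.09 to 1.72). Summed periocular and meningeal markers were at 144 CPM (7 of 8 detected) and 233 CPM (8 of 8) in the same cells, and frontonasal markers at 854 and 643 CPM (6 of 6 in both). Their part in the Tbx18 difference was not tested. Tbx15 was at 5.70 and 2.68 CPM (log2 ratio -1.09, from -1.71 to -0.51). Without thinning, a Tbx15 UMI was held by 44 of 1210 control cells (3.64%, 2.65 to 4.85) and 22 of 739 mutant cells (2.98%, 1.87 to 4.47). These intervals overlapped, so the share of cells did not separate the libraries. Over the whole mesenchyme, up to 15 Tbx15 UMIs came from 1 control cell and up to 4 from 1 mutant cell. Tbx2 (-0.31) and Tbx3 (-0.13) were slightly lower, and the interval of Tbx22 (0.38, from -0.01 to 0.77) included 0. Of the 5 members tested there, 1 was called higher and 1 lower, against 2.16% and 0.955% of the 10577 genes tested. Tallies took genes with at least 100 UMIs over both libraries, and Tbx4, with 23 control and 4 mutant UMIs, had too few counts to enter this tally.

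The finer clustering divided the frontonasal-like region into 2 clusters with different Tbx content. The cluster that kept the frontonasal-like name was led by Gata3, Gata2 and Pax3. There Tbx2 (203 and 184 CPM, log2 ratio -0.15) and Tbx3 (107 and 105 CPM) were close in the 2 libraries, and Tbx18 had only 24 and 14 UMIs. The other cluster was led by Tfap2b, Crym, Tfap2a and Shox2, although Tfap2a and Tfap2b took no part in the clustering. There Tbx18 was at 15.1 CPM in the control and 41.8 CPM in the mutant library (log2 ratio 1.47, from 1.15 to 1.80). Tbx18 was detected in 53 of 509 control cells and in 101 of 296 mutant cells. In the same cluster Tbx2 was at 111 and 61.7 CPM (log2 ratio -0.84, from -1.03 to -0.66), and Tbx3 at 68.1 and 51.2 CPM, a ratio of -0.41. This cluster held 127 of the control and 210 of the mutant UMIs of Tbx18, beside 143 and 225 in the whole frontonasal-like region. It also had the highest Tfap2a level of the 10 finer regions, at 71.3 and 42.4 CPM.

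Tbx22 differed between the libraries in the first of these clusters and not detectably in the second. In the Gata3-led cluster it was at 2.01 CPM in the control and 7.68 CPM in the mutant library, with UMIs in 16 of 695 and 28 of 438 cells (log2 ratio 1.94, from 1.19 to 2.73). In the Tfap2b/Shox2 cluster it was at 11.9 and 9.96 CPM, with overlapping intervals. TBX22 is a cleft palate gene of the palatal shelves and nasal mesenchyme, and its X linkage leaves sex and genotype tied in this value as well.

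In the Hoxa2/Emx2 region, every one of the 4 members tested was called. Tbx18 was higher, at 3.13 CPM in the control and 8.89 CPM in the mutant library (log2 ratio 1.51, from 0.91 to 2.14). Tbx15 (-1.69, from -2.35 to -1.06), Tbx3 (-0.94, from -1.50 to -0.39) and Tbx2 (-0.65, from -0.94 to -0.38) were lower. In brain progenitors, where counts of these genes also measure free RNA, Tbx3 was at 3.25 and 1.85 CPM (-0.82, from -1.61 to -0.03) and Tbx2 at 3.36 and 1.52 CPM (-1.15, from -1.99 to -0.33). The part of this lower background in the low Tbx3 and Tbx2 levels of the region was not tested. Of the 9929 genes tested in this region, 2.58% were called higher and 1.09% lower. In the finer Cyp26a1/Hsd11b2 cluster, Tbx15 was at 30.0 CPM in 146 control cells and at 5.24 CPM in 250 mutant cells (log2 ratio -2.52, from -3.53 to -1.61). In a cluster led by Shisa3, Cyp26a1 and Ebf2 that also included Pou3f4 among its leading genes, Tbx3 was at 21.6 and 4.61 CPM (log2 ratio -2.23, from -3.15 to -1.40). The smaller control numbers of these clusters mean that a few cells weigh heavily, since up to 10 Tbx15 UMIs came from 1 control cell.

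In the Vtn/Zic1 region, Tbx2 was at 33.8 CPM in the control and 18.1 CPM in the mutant library (log2 ratio -0.90, from -1.34 to -0.47). Tbx22 was lower by a ratio of -0.61 (-1.22 to -0.02). In the Igfbp5-led finer region its intervals overlapped, at 21.5 CPM (16.5 to 27.5) in the control and 15.6 CPM (11.1 to 21.2) in the mutant library. The mural-like cells of the region held 0 Tbx22 UMIs in both libraries, and the part of their share in the regional ratio was not tested. The interval of Tbx18 over the region included 0 (-0.11, from -0.35 to 0.13), although Tbx18 was lower in the mural-like cells (-0.67, from -0.97 to -0.38). Summed mural markers were at 387 and 781 CPM in the region and at 1027 and 1972 CPM in the mural-like cells, with 10 of 10 detected in each, and their part in these values was not tested. Tbx3 had 66 and 31 UMIs, under the minimum for the tally, with a ratio of -1.15. In brain progenitors the ratios were -1.15 for Tbx2 and -0.82 for Tbx3. The part of this lower background in the Tbx2 and Tbx3 levels of the Vtn/Zic1 region was not tested. Of the 3 members tested, 0 were called higher and 2 lower, against 3.12% and 1.1% of 8009 genes.

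In the maxillary-like region, the ratios of Tbx2 and Tbx3 were closer to 0 than in the 4 other regions. Tbx2 was at 175 and 160 CPM (-0.12, from -0.22 to -0.03) and Tbx3 at 140 and 134 CPM (-0.06, from -0.16 to 0.04). Tbx18 (0.47) and Tbx22 (-0.30) had intervals that included 0. Of the 4 members tested, 0 were called in either direction, against 1.09% of 9880 genes higher and 0.779% lower.

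The mandibular-like region was the only 1 of the 5 in which Tbx2 was higher in the mutant library. It was at 64.0 CPM in the control and 84.2 CPM in the mutant library (log2 ratio 0.39, from 0.22 to 0.57). Tbx3 was lower there, at 42.5 and 31.9 CPM (-0.42, from -0.67 to -0.17), so the 2 related genes had opposite directions. On the finer scale, the mandibular-like cluster had Tbx2 at 104 and 145 CPM (0.49, from 0.32 to 0.66) and Tbx3 at 67.4 and 66.7 CPM, with overlapping intervals. Of the 3 members tested, 0 were called, against 0.81% of 9385 genes higher and 1.48% lower. Control Tbx1 had 24 UMIs in 7 cells of this region, with up to 9 in 1 cell, and mutant Tbx1 had 1 UMI.

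**Figure D3:**
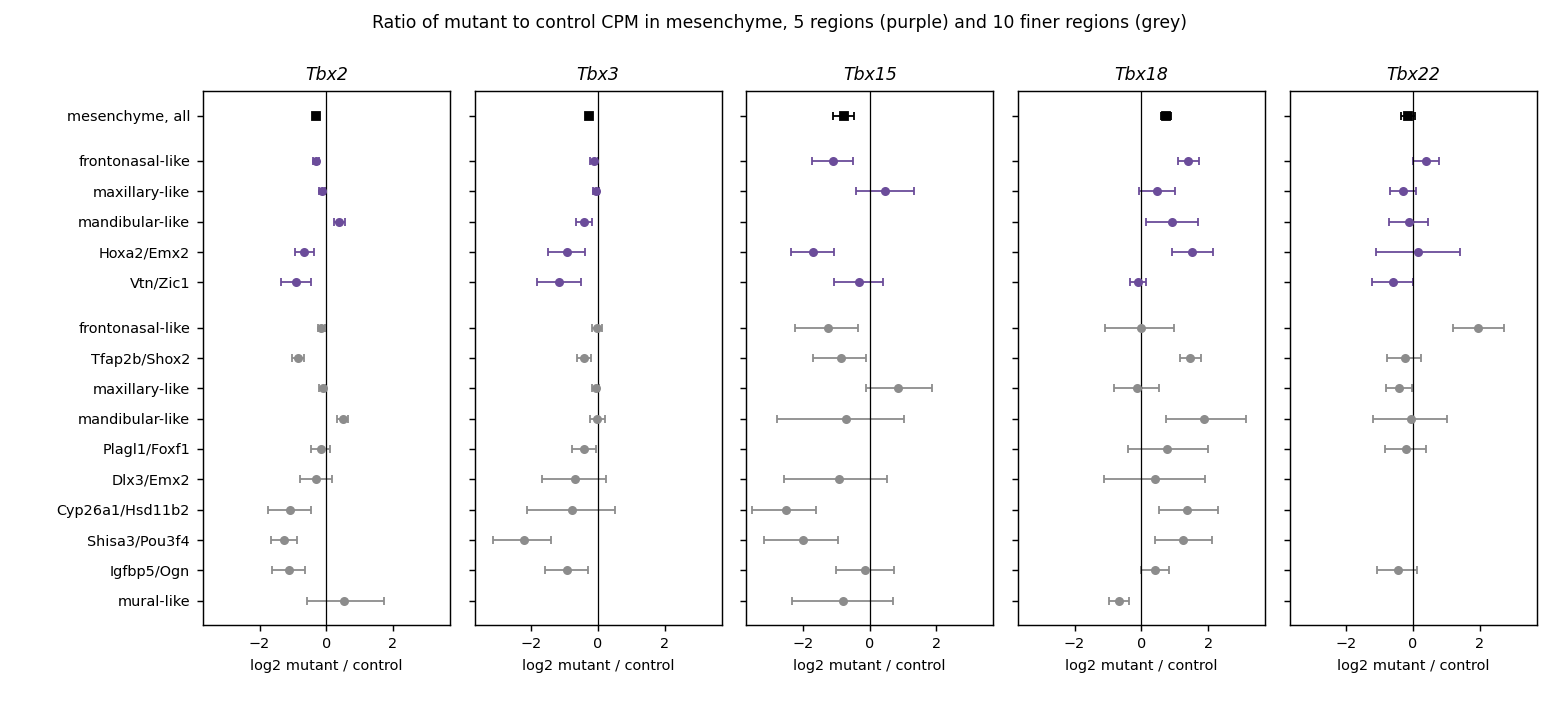
Log2 ratio of mutant over control CPM for 5 Tbx genes, in all mesenchyme (black squares), 5 regions (purple) and 10 finer regions (grey), with exact 95% intervals for counting error. Points are left out where either library had 3 UMIs or fewer. Tbx18 is to the right of 0 in the frontonasal-like (1.40) and Hoxa2/Emx2 (1.51) regions and to the left in mural-like cells (-0.67).

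**Figure D4:**
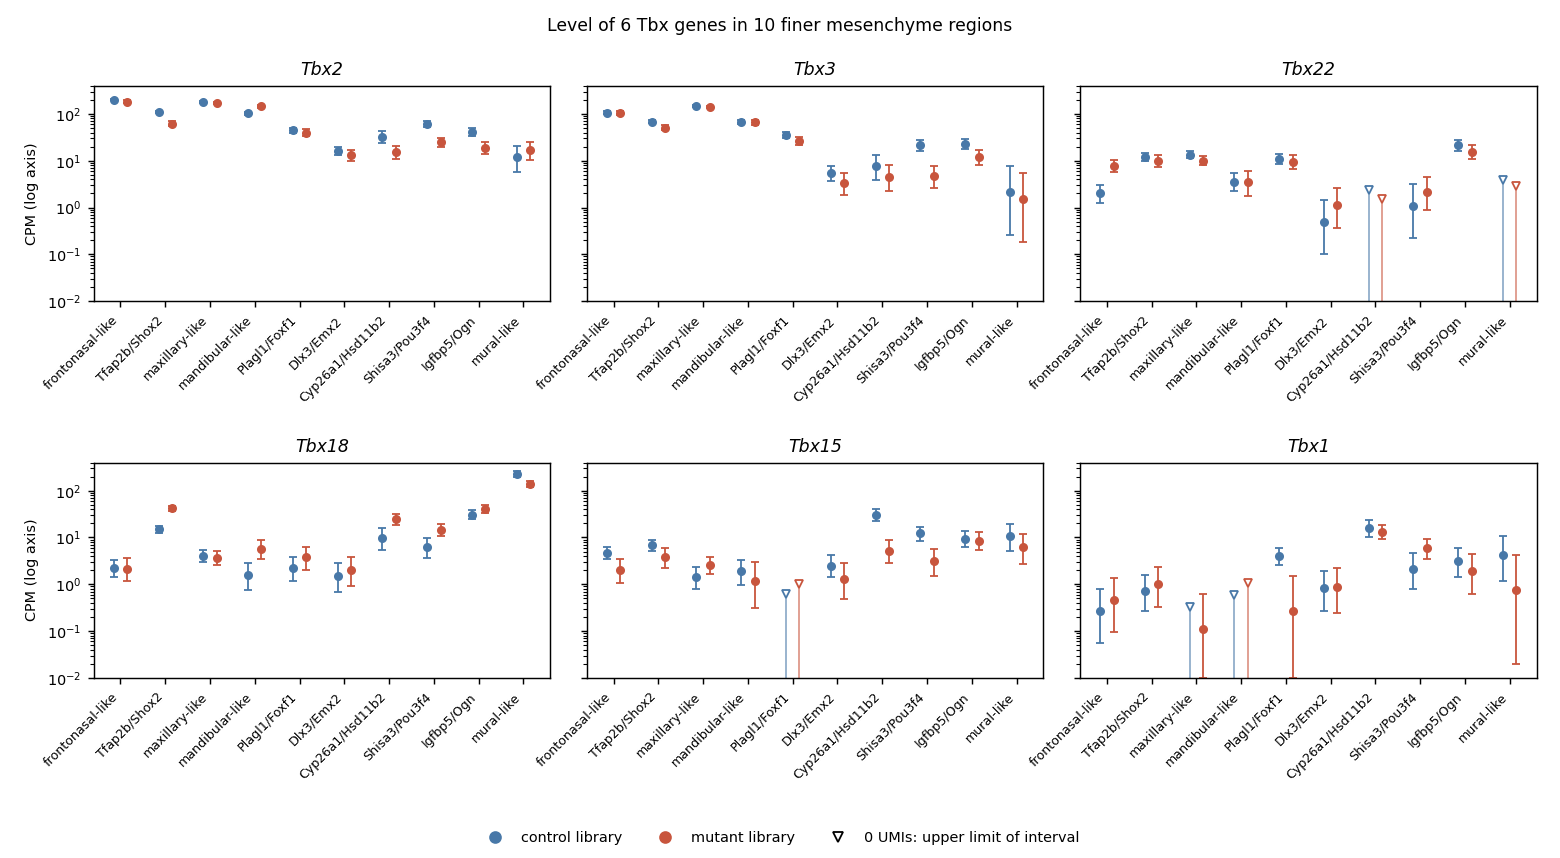
CPM (log axis) of 6 Tbx genes in 10 finer mesenchyme regions, control in blue and mutant in red, with 95% Poisson intervals and open triangles for the upper limit at 0 UMIs. Unnamed regions carry 2 of their leading genes. Tbx18 is highest in mural-like cells, Tbx22 in the Igfbp5/Ogn region and Tbx1 in the Cyp26a1/Hsd11b2 region.

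Whether members shared cells was examined in thinned mesenchyme cells, for the 10 pairs of 5 members found in at least 100 such cells over both libraries. Cells with Tbx2 held Tbx3 more often than cells without it. Of control cells with a Tbx2 UMI, 37.2% also had a Tbx3 UMI (34.5 to 40.0), against 14.2% of cells without (12.9 to 15.6). In the mutant library they were 40.1% of 750 cells with and 234 of 2031 cells without a Tbx2 UMI. Both genes were highest in the same regions, so the pair was also examined within regions. In the mandibular-like region the shares were 29.7% and 7.10% in the control and 23.1% and 7.69% in the mutant library, and in the frontonasal-like region 37.3% against 22.9% and 42.3% against 20.5%. These 4 pairs of intervals were apart. In the maxillary-like region they were 47.8% against 38.6% and 52.4% against 38.5%, with overlapping intervals in the control library. The Hoxa2/Emx2 region (8.57% against 2.48% and 6.98% against 1.49%) and the Vtn/Zic1 region (13.6% against 5.67% and 9.68% against 2.88%) had overlapping intervals in both libraries. Thinning set all cells to the same total of UMIs. Called doublets were kept, and their part and that of position within a region were not tested.

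Tbx18 was found mostly outside the Tbx2 and Tbx3 cells. A Tbx18 UMI was present in 1.64% of control cells with and 5.15% of cells without a Tbx2 UMI, and in 1.87% and 8.37% in the mutant library. Given Tbx3, the shares were 0.989% and 4.84% in the control and 1.31% and 7.88% in the mutant library. Tbx18 and Tbx15 were found together more often, since 8 of 67 control Tbx15 cells (11.9%) held a Tbx18 UMI against 3.86% of the others. In the mutant library it was 8 of 35 Tbx15 cells (22.9%) against 6.41%. Both genes were highest in the Vtn/Zic1 region in both libraries, and pairs other than Tbx2 with Tbx3 were not examined within regions. Counting Tbx2 with Tbx3, the intervals were apart in both libraries for 4 of the 10 pairs. In the other 6 pairs they overlapped in at least 1 library.

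**Figure D5:**
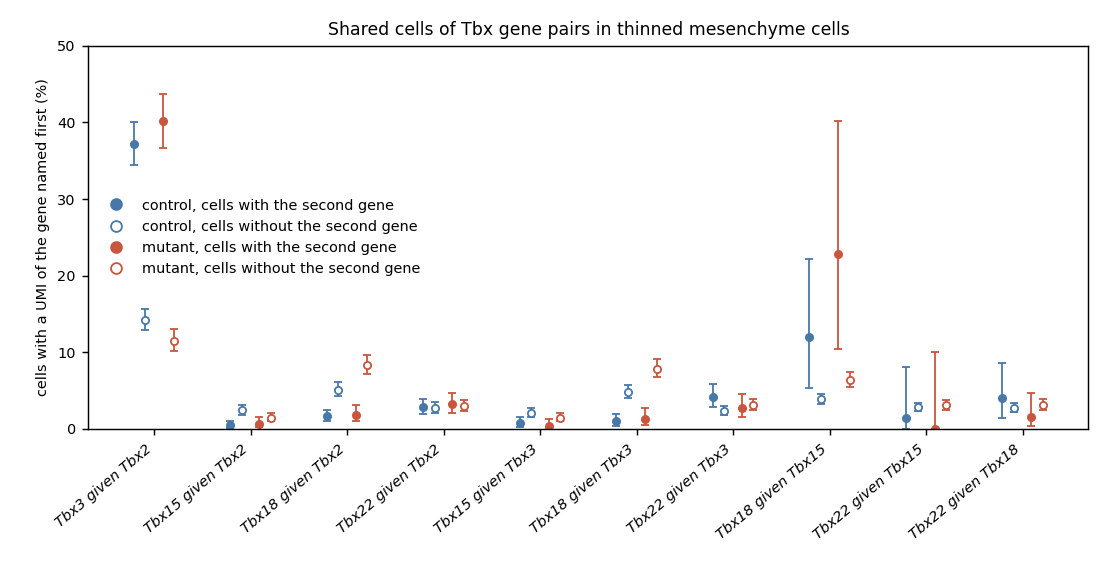
Share (%) of thinned mesenchyme cells with a UMI of the gene named first, among cells with (filled) and without (open) a UMI of the gene named second, for 10 pairs. Control is blue, mutant is red, and bars are exact 95% binomial intervals. Filled points lie above open points for Tbx3 given Tbx2 and Tbx18 given Tbx15, and below them for Tbx18 given Tbx2 or Tbx3.

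Shares of cells with and without a UMI of a regional gene gave Tbx2, Tbx3 and Tbx18 the same places. Lhx8, Alx1, Hoxa2, Zic1 and Vtn were themselves among the leading genes of the regions above. The likeness is therefore a description and not separate support for the regional pattern. Among control cells with a UMI of Lhx8, an oral maxillary factor, 54.0% held a Tbx2 and 45.8% a Tbx3 UMI, against 27.3% and 15.6% of cells without Lhx8. Among mutant Lhx8 cells the shares were 51.2% and 42.9%. Cells with Alx1, the midface homeobox gene, held Tbx2 in 45.3% of cases in the control and 43.5% in the mutant library, against 26.1% and 22.1% of cells without Alx1. Cells with Hoxa2, the second arch Hox gene, rarely held Tbx3, in 5 of 207 control and 12 of 238 mutant cells. Zic1 cells held Tbx18 in 49.1% of control cells (39.7 to 58.6) and 30.9% of mutant cells (24.4 to 38.0), against 2.55% and 4.83% of cells without Zic1. For Vtn, a pericyte gene, the shares were 61.0% of 59 control and 33.8% of 74 mutant cells. The share of Zic1 and Vtn cells with Tbx18 was thus lower in the mutant library, while that of the remaining cells was higher. Tbx22 was present in 4.25% of control Alx1 cells (3.21 to 5.51) and 7.06% of mutant ones (5.20 to 9.34), with overlapping intervals. Although Tbx22 was highest in the Vtn/Zic1 region, it was held by 0 of 116 control and 1 of 191 mutant Zic1 cells. For Vtn it was 0 of 59 and 0 of 74 cells, and these intervals overlapped those of cells without Zic1 or Vtn. Among Foxc1 cells, 5.82% of control and 3.60% of mutant cells held Tbx22, against 2.21% and 2.91% of the others. These intervals were apart only in the control library.

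The genes whose finer pattern was most like each member's were ranked by the mean Pearson correlation of log2(CPM + 1) over 11 finer regions (the 10 above and a cluster led by neural genes), among 9945 genes with at least 500 mesenchyme UMIs. These regions share 2 libraries, and the values are descriptions. Among the nearest to Tbx2 were 2610027K06Rik (0.93) and Slitrk6 (0.89), and among the nearest to Tbx3 were 2610027K06Rik (0.93) and E130114P18Rik (0.93). Tbx2 and Tbx3 themselves were correlated at 0.96. For Tbx18 the nearest were Zic2 (0.96), Zic5 (0.94) and Akap12 (0.94). For Tbx15 they were Selenof (0.88), Dse (0.88) and Fth1 (0.86), and those near Tbx22 included E130114P18Rik (0.85) and Tox (0.82).

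2610027K06Rik, the first gene on the Tbx2 list, is also its neighbour. This noncoding gene starts upstream of Tbx2 and runs the other way (chr11:85791661-85832223, minus strand). It had 411 control and 247 mutant mesenchyme UMIs (log2 ratio -0.33, from -0.56 to -0.10), beside -0.31 for Tbx2. Tbx3os1, antisense to Tbx3 and overlapping its start (chr5:119570130-119671365, minus strand), had 735 and 422 UMIs (log2 ratio -0.39, from -0.57 to -0.22), beside -0.26 for Tbx3. In the Tfap2b/Shox2 cluster Tbx3os1 was at 13.4 and 6.37 CPM (-1.08, from -1.69 to -0.50), and in the Gata3-led cluster at 15.8 and 21.5 CPM (0.45, from 0.11 to 0.78). Whether strand was used in counting was not given in the sources used here, so reads of Tbx3 and Tbx3os1 near their overlap may not be told apart. Gm43120, antisense within Tbx15, had 0 UMIs in both libraries.

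Among the other T-box genes, Mga was the only protein-coding gene with at least 100 mesenchyme UMIs. Its product pairs a T-box with a second DNA-binding domain and is widely expressed. It was at 69.3 CPM in the control and 71.3 CPM in the mutant library (log2 ratio 0.04, from -0.03 to 0.11). Tbx6 had 22 and 7 UMIs, Tbr1 7 and 7, and Tbx10 and Tbx19 had 0 in both.

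A list of inducers of T-box genes and cofactors of their products also held genes of Cyp26 enzymes, which break down retinoic acid. Of its 15 tested genes, 1 was called higher and 0 lower in the mesenchyme, beside 3.24% and 1.09% of all genes. Their median log2 ratio was 0.02, the same as over all genes. The called gene was Cyp26a1, at 5.39 CPM in the control and 18.5 CPM in the mutant library (1.78, from 1.59 to 1.97). Cyp26a1 was also a leading gene of the Cyp26a1/Hsd11b2 and Shisa3/Pou3f4 clusters. Region shares, which differed between the libraries, were not held equal for it, and their part in its ratio was not tested. Bmp4, a ligand that induces Tbx2 and Tbx3 in several organs, was at 51.7 and 43.1 CPM (-0.26, from -0.34 to -0.18). Mn1, which is needed for Tbx22 expression in the palate, was at 42.1 and 60.5 CPM (0.52, from 0.45 to 0.60). The corepressor genes Tle1, Tle2, Tle3, Tle4, Hdac1 and Hdac2 lay between -0.28 and 0.17.

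Of 4 tested genes that TBX2 or TBX3 is known to repress in other cells, 1 was called higher and 0 lower, beside 3.24% and 1.09% of all genes, with a median log2 ratio of 0.07. With so few genes, the count says nothing about the list. Cdkn1a, the p21 cell-cycle inhibitor, had 73 control and 143 mutant UMIs (1.24 and 3.22 CPM, log2 ratio 1.38, from 0.96 to 1.80). Gja1, which encodes the gap-junction protein connexin 43, was at 196 and 200 CPM (0.03). Adam10 was also close (0.10). Cdkn2a had 7 and 3 UMIs and Nppa 0 and 1, too few to compare.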

How the data were processed

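The authors sorted GFP-positive CNCCs, made 10x Chromium 3′ libraries and deposited filtered matrices of raw UMI counts, whole numbers for each gene in each barcode (Cell Ranger 6.0.0 per the file headers, mm10 per the labels). No other count column was used. As in the study, barcodes with 200 to 7500 genes and at most 10% mitochondrial UMIs were kept. Of 6 barcodes present in both libraries, 5 passed and were treated as separate cells.

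Cells were integrated and clustered with Seurat 5.3.0 (2000 variable genes, 30 dimensions, resolution 0.05), and mesenchyme cells again (20 dimensions, resolutions 0.2 and 0.6). T-box genes, the study's outcome genes and sex-linked genes were kept out of clustering. Clusters were named "-like" from marker lists. The naming rule was settled after the clusters had been seen: at least 3 higher markers, a mean log2 lead of 1 over the next list, and a marker among the 10 leading genes. Scrublet (scanpy 1.11.5) called 1.65% of control and 3.06% of mutant cells doublets, which were kept.

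UMIs were summed per library over the cells of a class or region. Intervals are exact (Poisson, conditional binomial for ratios, Clopper-Pearson for shares) at 95% and cover counting error only. Calls were 1.5-fold or more at 100 UMIs or more over both libraries, with a library at 0 set to a floor of 3 counts. Scaling by TMM (edgeR 4.0.16) or by DESeq2 1.42.0 size factors was an alternative. All 9 members are named, besides the 3 genes most like each member with at least 200 mesenchyme UMIs, and the genes of the other lists past 1.5-fold. A few genes that these rules name are not reported here. A few further genes of these lists were named after their values were seen. The members and gene lists were chosen with earlier results of these data known.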

Additional observations from a re-analysis of the deposited data

Results flagged for a closer look

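Several members had opposite directions in different regions of the mesenchyme, with both intervals leaving out 0. Each group had 1 library, so the difference between regions was not tested, and many regions were compared. The log2 ratio of Tbx2 was 0.39 in the mandibular-like and -0.90 in the Vtn/Zic1 region, and on the finer scale 0.49 in the mandibular-like and -1.27 in the Shisa3/Pou3f4 cluster. That of Tbx18 was 1.88 in the finer mandibular-like cluster (10 control and 20 mutant UMIs) and -0.67 in mural-like cells. That of Tbx22 was 1.94 in the finer frontonasal-like and -0.42 in the maxillary-like cluster. That of Tbx1 was 1.43 in the Shisa3/Pou3f4 cluster (6 and 19 UMIs) and -3.91 in a cluster led by Plagl1 and Gpr50 (24 and 1 UMIs), where 7 control cells held all 24.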

How the results depend on the processing

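No paired analysis was possible because each group had 1 library, and no library could be left out. Over 10 alternative settings, the mesenchyme log2 ratio of Tbx18 lay between 0.69 and 0.83, that of Tbx15 between -0.81 and -0.70, that of Tbx2 between -0.41 and -0.29 and that of Tbx3 between -0.32 and -0.19. Equal region shares gave 0.54 (regions) and 0.39 (finer regions) for Tbx18, under 1.5-fold. Without thinning, the mutant minus control share of cells with a UMI was -10.1 points for Tbx2, -6.02 for Tbx3 and 5.76 for Tbx18, against -5.72, -2.49 and 2.61 with it. The log2 ratio of Tbx22, whose interval included 0, lay between -0.19 and 0.16, the last with thinned cells. The counts of genes called higher and lower (409 and 137) were 844 and 356 with a minimum of 30 UMIs and 3314 and 2269 with a minimum of 1, as more genes of few counts were tested. The count called lower was 72 in thinned cells, where UMIs were fewer. Leaving out the cluster led by neural genes, an alternative added after seeing the data, gave 331 and 128. Without integration, the level of Tbx1 in the matched region was below the highest other (log2 -1.90), as were those of Tbx20 (-0.41) and Tbx22 (-0.013). The cause was not tested. Depth limited Tbx1, Tbx4, Tbx5 and Tbx20, each with under 100 mesenchyme UMIs in each library.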
